A study of Macaca fascicularis with 24 samples.

Results

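Focal adhesions are the sites at which a cell fixes its actin cytoskeleton, through integrins, to the matrix outside. Talin binds the tails of integrins and opens them for ligand, vinculin and alpha-actinin tie talin and actin together, integrin-linked kinase and parvin form a scaffold beside them, and paxillin, zyxin, tensin and focal adhesion kinase carry the signals that pass through the site. In the wall of a large artery, smooth muscle cells hold to the elastic and collagen fibres through such sites and pass their contraction on to them.

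The transcripts of 10 focal adhesion genes (VCL, TLN1, FLNA, ILK, PXN, ZYX, PARVA, TNS1, ACTN1 and PTK2) were followed in thoracic aortas of the cynomolgus macaque, Macaca fascicularis. Every probe set, the group of short probes that reads 1 transcript, was taken whose platform annotation gives 1 of these symbols and no other. This gave 21 probe sets of 9 genes, out of 11963 genes named on the array. No probe set was named FLNA, which encodes the actin cross-linker filamin A, so that gene was not analysed here. All 21 probe sets passed the filter on dim probe sets, which kept those with a mean at or above the median of all means. Of these genes, 7 had several probe sets, and each gene is described by the one that was brightest on average, its other probe sets by their own values. Probe sets differ in how well they catch their transcript, so the level of one was never set against the level of another.

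RNA of 24 aorta samples was read on single-colour human arrays, 6 for each combination of age and sex. The old males had a mean age of 20.0 years, the young males 6.6, the old females 21.2 and the young females 7.2, and the labels give neither a treatment nor a genotype. The study asked how transcripts of the aorta differ between old and young males and between old and young females. In 3 groups, 1 pair of arrays was far closer than any other pair (young males 3 and 4, old females 1 and 4, and young females 3 and 4). Each pair was averaged, which left 21 samples: 6 of old males, 5 of young males, 5 of old females and 5 of young females. Nothing beyond 1 mean age per group says that the samples are separate animals, so p-values measure only the spread between these samples. All 12 smooth muscle markers passed the filter, with medians over samples from 10.72 for DES to 15.47 for TAGLN on the log2(intensity + 16) scale, which is used for every level here. In whole tissue, fewer cells of a type and less RNA per cell cannot be told apart.

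On 7 arrays, making up 6 samples (old males 2 and 4, young male 1, old females 2 and 6, young female 3), the median correlation with the other arrays was 0.81 to 0.83, against 0.88 to 0.93 on the remaining 17. These 6 are called divergent samples below. Their actin ratio, the log2 signal of the 3′ actin control over that of the 5′ control, which rises with RNA degradation, was 0.78 to 1.73, against -0.25 to 1.15 in the other 15, where old female 3 held the highest value. The median intensity as deposited was 234.4 to 264.1 on the 7 divergent arrays and 144.2 to 212.1 on the remaining 17. The limit of 0.85 that separates the divergent samples was set with their values known.

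Most focal adhesion probe sets had a lower median in the divergent samples, though not the brightest ones of PXN, TNS1 and PTK2. In each of the 9 genes the lowest of all 21 samples was a divergent one, against 58.0% of all 6952 tested genes, and in 7 of the 9 it was old female 6, against 12.1% of all tested genes. The highest sample was a divergent one in 3 of the 9 genes, against 54.9% of all tested genes. The median of the divergent samples lay below that of the other samples in 17 of the 21 probe sets and above it in 4. Of all tested probe sets, 54.4% lay below. The 4 above were the brightest of PXN (9.79 against 9.53), TNS1 (14.76 against 14.70) and PTK2 (11.41 against 11.16), and 221246_x_at of TNS1. Both sets of samples were entirely apart in 2 of the 21 (9.52%, against 3.90% of all tested probe sets). One was a probe set of TNS1 (221747_at), at 11.73 to 13.60 in the divergent samples and 13.71 to 14.60 in the others. The other was that of PARVA (217890_s_at), which encodes alpha-parvin, at 7.94 to 9.76 in the divergent samples and 9.97 to 10.82 in the others. As the samples were set apart by their values over the whole array, these are descriptions without a test. In old female 6 the mean of the 12 smooth muscle markers was 11.46, the lowest of all samples, the mean of the macrophage markers was 10.17, the highest, and the actin ratio was 0.84. Their part in the low values was not tested.

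**Figure D1:**
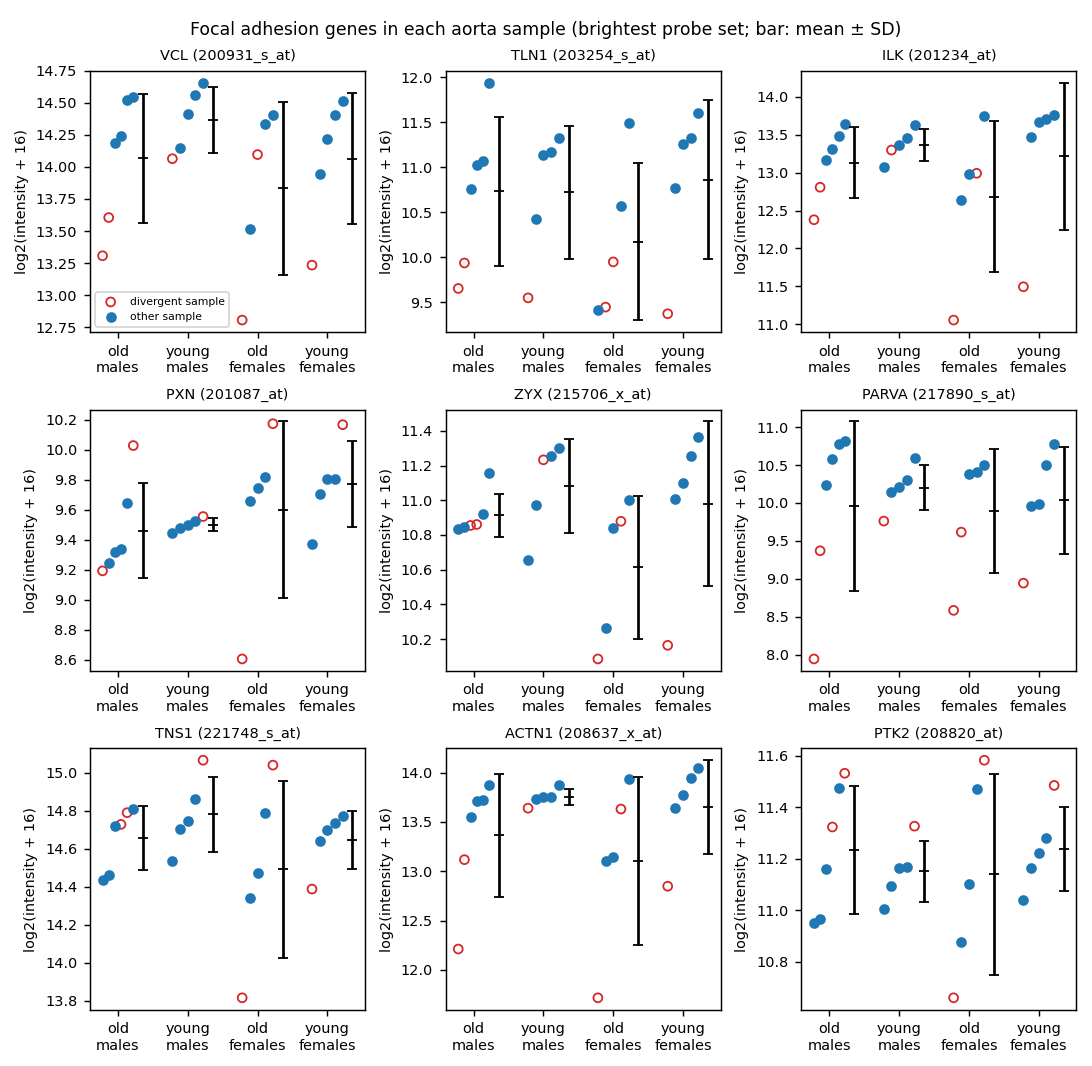
Level of each focal adhesion gene, log2(intensity + 16), for 6 old males, 5 young males, 5 old females and 5 young females (samples sorted by level within a group). Open red circles are divergent samples, filled circles are the others and the bar is the mean ± SD of all samples of a group. Old and young samples overlap in every panel, and open circles hold the lowest value of all 9 genes.

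The actin linkers come first. TLN1 encodes talin 1, the protein that activates integrins from inside the cell. Its level in old males ran from 9.65 over a median of 10.89 to 11.94. In young males it was 9.55, 11.32, 10.43, 11.13 and 11.17 in samples 1, 2, 3, 5 and 6. The divergent samples were the lowest of both male groups, and old male 1 was the highest of all samples. Old females 1, 2, 3, 5 and 6 read 11.49, 9.95, 9.42, 10.57 and 9.45, and young females 1, 2, 3, 5 and 6 read 11.26, 10.77, 9.37, 11.60 and 11.32. Among old females 3 samples were low, 2 of them divergent, and among young females 1, and both groups covered nearly the same range. VCL encodes vinculin, which reinforces the bond between talin and actin under load. Its brightest probe set ran from 13.31 over a median of 14.22 to 14.54 in old males. Young males read 14.06, 14.42, 14.15, 14.56 and 14.66 in samples 1, 2, 3, 5 and 6. Old females read 14.34, 14.10, 13.51, 14.41 and 12.81 in samples 1, 2, 3, 5 and 6, and young females 14.41, 14.22, 13.23, 14.51 and 13.94. The 5 lowest values belonged to 4 divergent samples and old female 3, and the 4 groups overlapped.

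ACTN1 encodes alpha-actinin 1, which bundles actin filaments and anchors them at adhesions. Its brightest probe set ran from 12.21 over a median of 13.63 to 13.88 in old males. Young males read 13.64, 13.74, 13.75, 13.76 and 13.88 in samples 1, 2, 3, 5 and 6. The young males lay within a narrow band at the upper end of the old males, and the 2 lowest old males were the divergent ones. Old females read 13.93, 13.63, 13.15, 13.10 and 11.72 in samples 1, 2, 3, 5 and 6, and young females 13.78, 14.05, 12.85, 13.94 and 13.64. Old females 3 and 5, which are not divergent, lay below all young females but the divergent one.

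ILK encodes integrin-linked kinase, a pseudokinase that binds the beta integrin tail and scaffolds parvin and PINCH. Old males ran from 12.38 over a median of 13.24 to 13.65. Young males read 13.30, 13.63, 13.07, 13.46 and 13.37 in samples 1, 2, 3, 5 and 6. Both divergent old males lay below all young males, and the other old males within their range or just above it. Old females read 13.75, 12.99, 12.63, 12.98 and 11.05 in samples 1, 2, 3, 5 and 6, and young females 13.71, 13.67, 11.49, 13.76 and 13.47. Of the old females, 4 lay below the 4 young females that are not divergent, and old female 1 lay among them. PARVA encodes the parvin that ties integrin-linked kinase to actin. Its level was 7.94 to 10.82 in old males (median 10.41) and 9.76 to 10.59 in young males, 8.58 to 10.50 in old females and 8.94 to 10.78 in young females, and the low end of all 4 ranges was a divergent sample.

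Among the adaptors, ZYX encodes zyxin, a LIM protein that moves to strained actin fibres. Its brightest probe set ran from 10.83 over a median of 10.86 to 11.16 in old males. Young males read 11.23, 10.97, 10.66, 11.25 and 11.30 in samples 1, 2, 3, 5 and 6. Old males were tightly grouped, and 3 of the 5 young males lay above all of them. Old females read 11.00, 10.88, 10.26, 10.84 and 10.09 in samples 1, 2, 3, 5 and 6, and young females 11.01, 11.36, 10.16, 11.10 and 11.26. All old females lay below the 4 young females that are not divergent. TNS1 encodes tensin 1, which links the integrin tail to actin at mature adhesions. Its brightest probe set was 14.43 to 14.81 in old males (median 14.72) and 14.54 to 15.07 in young males, 13.82 to 15.04 in old females and 14.39 to 14.77 in young females. PXN encodes paxillin, a scaffold phosphorylated by focal adhesion kinase and Src. Its brightest probe set was 9.19 to 10.03 in old males (median 9.33) and 9.44 to 9.56 in young males, 8.61 to 10.17 in old females and 9.37 to 10.17 in young females. The divergent samples held both ends of the paxillin range in old males and old females.

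PTK2 encodes focal adhesion kinase, the tyrosine kinase that is switched on when integrins cluster. Its brightest probe set was 10.95 to 11.53 in old males (median 11.24) and 11.00 to 11.33 in young males, 10.66 to 11.58 in old females and 11.04 to 11.49 in young females. In contrast to the linkers, the highest value of each group was a divergent sample. Within groups, the SD of the 9 genes ran from 0.25 for PTK2 to 0.83 for TLN1, and the quartiles of this SD over all tested probe sets were 0.34 and 0.63.

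Old against young males was the first comparison. No focal adhesion transcript passed: of the 21 probe sets, 0 had a limma adjusted p below 0.05 and 0 an unadjusted p below 0.05, where 0.018% and 3.36% of all 11108 tested probe sets did. Old and young males overlapped in all 21, and 0.657% of all tested probe sets were apart. Taking 1 probe set per gene, the mean in old males was lower for 7 of 9 genes and higher for 2, and the median log2 change was -0.17, while 51.8% of all tested genes had a lower mean and their median was -0.01. ACTN1 averaged 13.37 ± 0.62 in old males and 13.75 ± 0.08 in young males (SD, n = 6 and 5), which is -0.39 ± 0.32 as a log2 change (SE, limma adjusted p = 0.9999). VCL averaged 14.07 ± 0.50 in old males and 14.37 ± 0.26 in young males, a log2 change of -0.30 ± 0.28. The log2 changes of the other genes were -0.25 ± 0.45 for PARVA, -0.23 ± 0.40 for ILK, -0.17 ± 0.21 for ZYX, -0.12 ± 0.16 for TNS1, -0.04 ± 0.22 for PXN, 0.01 ± 0.46 for TLN1 and 0.08 ± 0.17 for PTK2. The 95% interval for talin ran from -0.95 to 0.97, a level in old males between 51.7% and 196% of that in young males. The interval for TNS1 was narrower, from 73.0% to 115%, and that for PTK2 from 83.2% to 135%. These percentages are on the scale of intensity + 16.

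The same comparison in females gave 0 of 21 probe sets past the adjusted threshold and 0 at an unadjusted p below 0.05, against 0% and 2.84% of all tested probe sets. Old and young females overlapped in all 21, and 0.342% of all tested probe sets were apart. All 9 genes had a lower mean in old females, with a median log2 change of -0.23, while 53.5% of all tested genes were lower with a median of -0.02. TLN1 averaged 10.18 ± 0.87 in old females and 10.86 ± 0.88 in young females (SD, n = 5 each), which is -0.69 ± 0.48 as a log2 change (SE, limma adjusted p = 0.9996). ACTN1 had a log2 change of -0.55 ± 0.34 and ILK of -0.54 ± 0.42. ZYX, with a log2 change of -0.37 ± 0.22, had the smallest unadjusted limma p of the 21 probe sets, 0.109. The log2 changes of the other 5 genes were -0.23 ± 0.30 for VCL, -0.17 ± 0.23 for PXN, -0.16 ± 0.17 for TNS1, -0.14 ± 0.47 for PARVA and -0.10 ± 0.18 for PTK2. The 95% interval of TLN1 left room for a level in old females between 30.9% and 125% of that in young females, and that of TNS1 for 70.8% to 114%. Without old female 6, 4 of 9 genes had a lower mean in old females and the median log2 change was 0.01. Without young female 3, the divergent young female, the median log2 change was -0.44 and 5 of 21 probe sets had an unadjusted limma p below 0.05, with 0 past the adjusted threshold. Of the smooth muscle markers, 11 of 12 had a lower mean in old females as well, with a median log2 change of -0.38, and their mean per sample ran from 11.46 to 13.61 in old females and from 12.09 to 13.46 in young females. The actin ratio averaged 0.73 ± 0.77 in old females and 0.29 ± 0.37 in young females. Their part in the lower means of the focal adhesion genes was not tested.

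**Figure D2:**
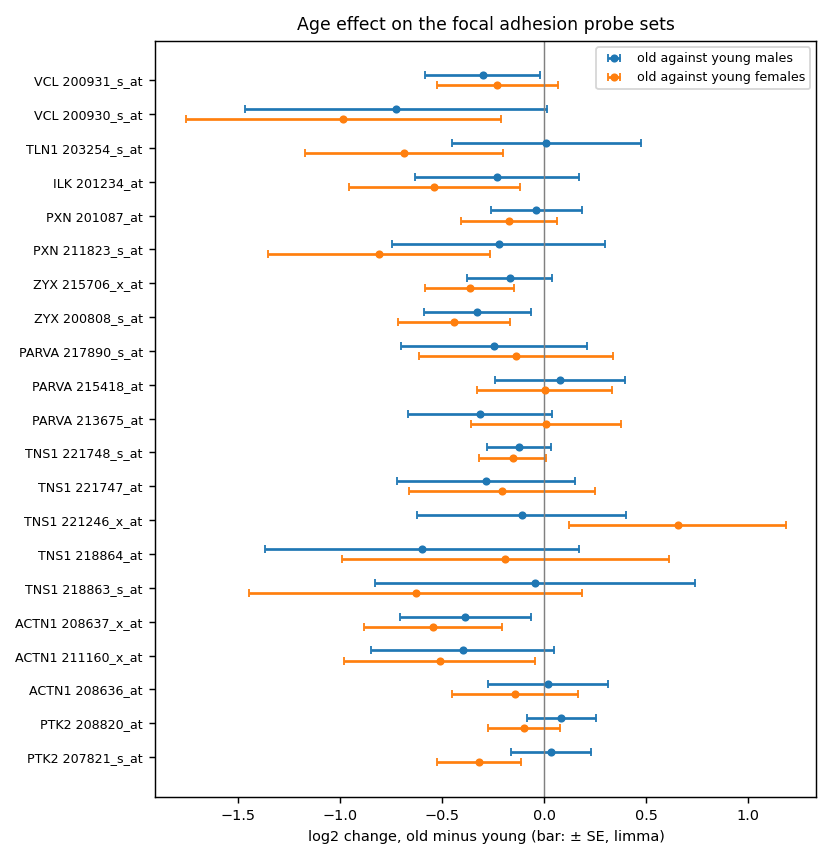
Log2 change of each of the 21 focal adhesion probe sets, old minus young (horizontal axis), with bars of ± 1 SE from limma. The blue point of a row is the change in males and the orange point that in females. Most points lie left of 0, with changes from -0.73 to 0.08 in males and from -0.99 to 0.65 in females, and 0 of the 21 has an unadjusted p below 0.05 in either sex.

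Averaged over both sexes, 0 of the 21 probe sets passed and 0 had an unadjusted p below 0.05, against 0% and 4.38% of all tested probe sets. All 9 genes had a lower mean in old animals, with a median log2 change of -0.27, and 53.2% of all tested genes were lower. The probe sets nearest to the threshold were the second one of ZYX (200808_s_at), with a log2 change of -0.39 ± 0.19 and an unadjusted p of 0.0548, and ACTN1, with -0.47 ± 0.23 and an unadjusted p of 0.0590 (both limma adjusted p = 0.985). The log2 change of the brightest ZYX probe set was -0.27 ± 0.15 and that of ILK -0.39 ± 0.29. For PTK2 it was -0.01 ± 0.12, with a 95% interval from 83.5% to 118% of the young level. Without the 6 divergent samples, 7 of 9 genes had a lower mean in old animals and the median log2 change was -0.14. In that fit 2 focal adhesion probe sets had an unadjusted limma p below 0.05 and 0 passed the adjusted threshold. Over all alternatives, 0 to 4 had an unadjusted limma p below 0.05. Without the 6 divergent samples and old female 3, an alternative chosen after the data were seen, 6 of 9 genes had a lower mean in old animals and the median log2 change was -0.08.

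The difference of both age effects, males minus females, was tested as an interaction. It gave 0 of 21 probe sets past the adjusted threshold and 0 at an unadjusted limma p below 0.05, where 0% and 1.97% of all tested probe sets did. For 7 of 9 genes the age effect lay higher in males, with a median difference of 0.16 on the log2 scale. For VCL (-0.07 ± 0.41) and PARVA (-0.11 ± 0.66) it lay lower, as it did for 47.5% of all tested genes (median 0.02). TLN1 had the largest difference, 0.70 ± 0.67 (95% interval -0.69 to 2.09), so that the age effects of talin in males and females were not shown to differ. Without old female 6, the age effect lay lower in males for 6 of 9 genes, with a median difference of -0.12. With the actin ratio as a covariate, it lay lower for 5 of 9, with a median of -0.03.

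Males and females were also compared at each age. In old animals, 0 of 21 probe sets passed the adjusted threshold and 0 had an unadjusted limma p below 0.05, against 0.027% and 4.09% of all tested probe sets, and 8 of 9 genes had a higher mean in males. The median log2 change, male minus female, was 0.24, with TLN1 at 0.56 ± 0.46, ILK at 0.45 ± 0.40 and ZYX at 0.30 ± 0.21. PXN was the gene with a lower mean in old males, at -0.14 ± 0.22, while 47.8% of all tested genes had a lower mean there. With the mean of the smooth muscle markers as a covariate, this median was -0.26, and without old female 6 it was -0.02. In young animals, 0 of 21 probe sets passed and 0 had an unadjusted p below 0.05, against 0.027% and 1.39% of all tested probe sets. There 6 of 9 genes had a higher mean in males, with a median log2 change of 0.10, from -0.27 ± 0.23 for PXN to 0.31 ± 0.30 for VCL. The other 3 had a lower mean in young males, as did 50.8% of all tested genes.

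The probe sets of a gene told different stories in some genes and like ones in others. Across the 15 samples that are not divergent, both probe sets of ZYX correlated at r = 0.85 and both of VCL at r = 0.74. The second VCL probe set (200930_s_at) varied far more, from 7.53 to 12.41 over all samples, and its log2 changes with age were -0.73 ± 0.74 in males and -0.99 ± 0.77 in females. Of the 5 TNS1 probe sets, 3 moved closely together: 218864_at with 218863_s_at at r = 0.87, with 221747_at at 0.79, and 221747_at with 218863_s_at at 0.59. The brightest, 221748_s_at, correlated with the other 4 at r = 0.07 to 0.45. The fifth, 221246_x_at, was the TNS1 probe set with a higher mean in old females, at a log2 change of 0.65 ± 0.53. It read 9.25 to 11.57 in old females and 7.84 to 11.28 in young females, where young female 6 was far below the rest.

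**Figure D3:**
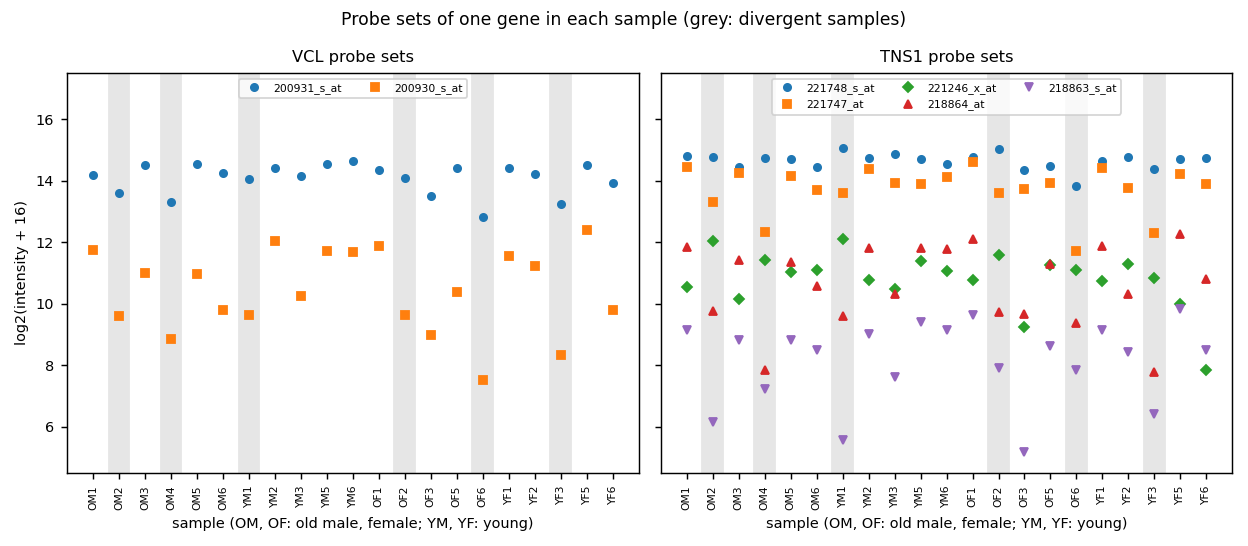
Level of both VCL probe sets and all 5 TNS1 probe sets, log2(intensity + 16), in each sample, ordered by group (OM and YM, old and young males; OF and YF, old and young females), with divergent samples shaded grey. The second VCL probe set and 3 of the TNS1 probe sets (221747_at, 218864_at, 218863_s_at) have a lower median in the shaded columns than in the others. The lowest value of 218863_s_at (5.19) is that of old female 3, which is not shaded. The brightest TNS1 probe set, 221748_s_at, runs from 13.82, in the shaded old female 6, to 15.07.

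For the remaining genes the agreement was weak. Both probe sets of PXN correlated at r = -0.16 and both of PTK2 at r = -0.19, and the 3 pairs of PARVA ran from -0.13 to 0.07. The second PARVA probe set (215418_at), at 7.01 to 8.75, and the third (213675_at), at 6.87 to 8.90, had log2 changes with age averaged over both sexes of 0.04 ± 0.23 and -0.15 ± 0.25. Of ACTN1, the probe sets 208637_x_at and 211160_x_at correlated at r = 0.51, and 208636_at correlated at 0.44 with the first and at -0.08 with the second. The averaged log2 change of ACTN1 was -0.46 ± 0.32 on 211160_x_at and -0.06 ± 0.21 on 208636_at. These correlations are over samples of 4 groups and carry no test.

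Whether the 9 genes vary together was asked over the 15 samples that are not divergent, and in the divergent ones apart. On their brightest probe sets, talin, integrin-linked kinase, zyxin and alpha-actinin varied together. Of the 36 pairs of genes, 5 passed a two-sided permutation test of Pearson's r with 100000 resamples and Benjamini-Hochberg adjustment over the pairs, and all 5 joined these 4 genes. TLN1 and ILK had r = 0.84 (permutation p = 0.00014, adjusted 0.00504) and rho = 0.76 (permutation p = 0.00171, adjusted 0.0308). ILK and ACTN1 had r = 0.82 (permutation p = 0.00038, adjusted 0.00684) and rho = 0.77 (permutation p = 0.00129, adjusted 0.0308). ILK and ZYX (r = 0.74, rho = 0.55) had an adjusted permutation p of 0.0252 for r and 0.226 for rho. TLN1 and ZYX (r = 0.74, rho = 0.58) had 0.0318 and 0.222, and ZYX and ACTN1 (r = 0.69, rho = 0.66) had 0.0399 and 0.111. Thus 2 of the 5 pairs passed on ranks. The sixth pair among the 4 genes, TLN1 and ACTN1, had r = 0.67 (adjusted permutation p = 0.0617).

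Much of this rested on 1 sample. Old female 3 held the lowest value of the 15 samples for TLN1, VCL, ILK, ZYX and TNS1, and its actin ratio of 1.15 was the highest. Without it, 0 of the 36 pairs passed, and r was 0.70 for TLN1 and ILK, 0.71 for ILK and ACTN1, 0.52 for ILK and ZYX, 0.46 for TLN1 and ZYX and 0.49 for ZYX and ACTN1. Leaving out the 2 samples farthest from the median of the gene named first, r was 0.73 for TLN1 and ILK, 0.56 for ILK and ACTN1, 0.46 for ILK and ZYX, 0.45 for TLN1 and ZYX and 0.39 for ZYX and ACTN1. Without old male 6, 3 pairs passed, and without young male 3, 10. As residuals from the means of the age and sex groups, 4 of the 36 pairs passed, and TLN1 and ILK had r = 0.83. Among the 4 were TLN1 with ILK, TLN1 with ZYX and ILK with ACTN1. Not among them were ILK with ZYX (adjusted permutation p = 0.0824) and ZYX with ACTN1 (0.115). With the mean of all probe sets of a gene in place of the brightest, 20 of 36 pairs passed and the median r was 0.59. This setting was not run without old female 3.

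Over all 36 pairs the median r was 0.17, with 22 of 36 pairs positive and 12 at an unadjusted permutation p below 0.05, and over all pairs of tested genes the median was 0.00, with 5% of pairs below -0.50 and 5% above 0.51. VCL, the partner of talin, had a median r of 0.35 with the other 8 genes and 0 pairs past the threshold, and its r of 0.59 with TLN1 was 0.18 without the 2 farthest samples, old female 3 and young female 6. With the mean of all probe sets of a gene, VCL passed with TNS1 at r = 0.93 (adjusted permutation p = 0.00036). It also passed with PXN (0.80), ZYX and TLN1 (0.78 each), ILK (0.72) and ACTN1 (0.60). With PTK2 (0.12) and PARVA (0.04) it did not. Old female 3 was the lowest of the 15 samples on 200930_s_at of VCL (8.97). It was also the lowest on 218864_at (9.65) and 218863_s_at (5.19) of TNS1. The mean of all probe sets was not run without that sample. TNS1 had a median r of 0.32, and on the mean of all probe sets it passed with VCL, TLN1, ILK, PXN, ZYX and ACTN1. PARVA, which binds ILK in the cell, had r = 0.02 with ILK and a median of 0.00 with all partners. PXN had a median of -0.12. PTK2 had r below 0 in 7 of its 8 pairs, with a median of -0.46, and none of its pairs passed. The lowest was -0.59 with ILK (adjusted permutation p = 0.0797). Without the 2 samples farthest from the partner's median, its r was 0.37 for VCL, 0.25 for PARVA, 0.09 for TNS1 and 0.00 for TLN1. It was -0.07 for ZYX, -0.11 for PXN, -0.47 for ACTN1 and -0.48 for ILK. With the mean of all probe sets of a gene, r of PTK2 ran from -0.33 with ACTN1 to 0.13 with PARVA.

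In the 6 divergent samples taken alone, 35 of 36 pairs had r above 0 and the median r was 0.61. Here 5 pairs passed an exact two-sided permutation test over all 720 orders, with adjusted p-values from 0.025 to 0.04, and 0 passed on ranks, where 8 had an unadjusted p of r below 0.05. They were ILK with ZYX (r = 0.97) and with TNS1 (0.96), VCL with ACTN1 (0.95) and with TNS1 (0.94), and ZYX with TNS1 (0.91). PTK2, at a median r of 0.61, was positive with all 8 partners in these samples. Whether the correlations of the divergent samples differ from those of the others was not tested. Old female 6 was the lowest of the 6 for 7 of the 9 genes.

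**Figure D4:**
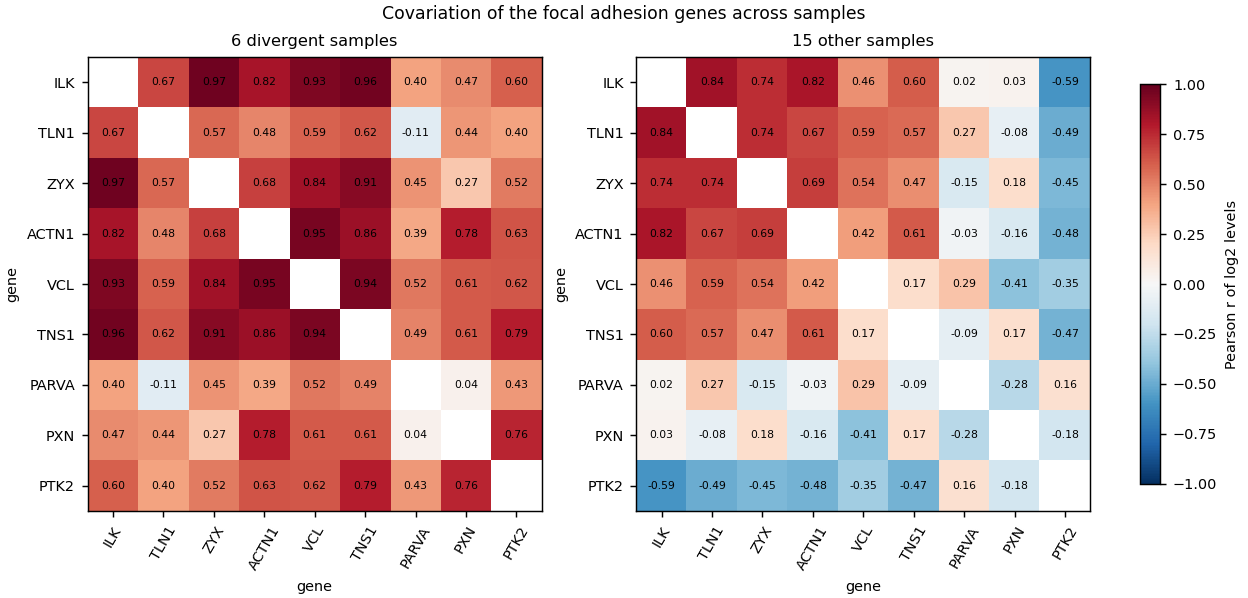
Pearson r between the log2 levels of each pair of focal adhesion genes over the 6 divergent samples (left) and the 15 other samples (right), with the colour from -1 (blue) to 1 (red). On the right the block of ILK, TLN1, ZYX and ACTN1 holds values from 0.67 to 0.84 and the PTK2 row is below 0 except for PARVA, and on the left 35 of 36 values are above 0.

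The 9 genes were then set against 6 marker lists and the actin ratio over the 15 samples, 63 relations in all, and 2 passed the adjustment over these 63. TLN1 ran with the mean of the smooth muscle markers at r = 0.78 (permutation p = 0.00057, adjusted 0.018) and rho = 0.66 (permutation p = 0.00957, adjusted 0.301), and r was 0.69 without old females 3 and 5. VCL ran against the actin ratio at r = -0.86 (permutation p = 0.00053, adjusted 0.018) and rho = -0.67 (permutation p = 0.00814, adjusted 0.301), and r was -0.67 without old female 3 and young male 3. Neither passed on ranks. With the smooth muscle mean, r was above 0 in 7 of 9 genes, with a median of 0.42, from -0.29 for PTK2 over 0.64 for ILK, 0.68 for TNS1 and 0.73 for ACTN1 to the 0.78 of TLN1. Without old females 3 and 5 this median was 0.14. After the part that follows the smooth muscle mean had been taken out as residuals from a line, 2 of the 36 gene pairs passed. These were TLN1 with ILK and with ZYX (adjusted permutation p = 0.0427 each). After the actin ratio 6 passed, among them TLN1 with ILK (adjusted permutation p = 0.0066) and ILK with ACTN1 (0.00468). The pairs of ZYX with TLN1, ILK and ACTN1 did not, with adjusted permutation p from 0.054 to 0.0798. Both adjustments were chosen as alternatives after the data were seen. In the 6 divergent samples VCL ran with the actin ratio, at r = 0.86, the opposite sign (exact permutation p = 0.0319, adjusted 0.295). Without old female 2 and young male 1 this r was 0.02. With the actin ratio, r was above 0 in 9 of 9 genes in the divergent samples (median 0.67). Over the 15 samples it was above 0 in 2 of 9 (median -0.36).

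**Figure D5:**
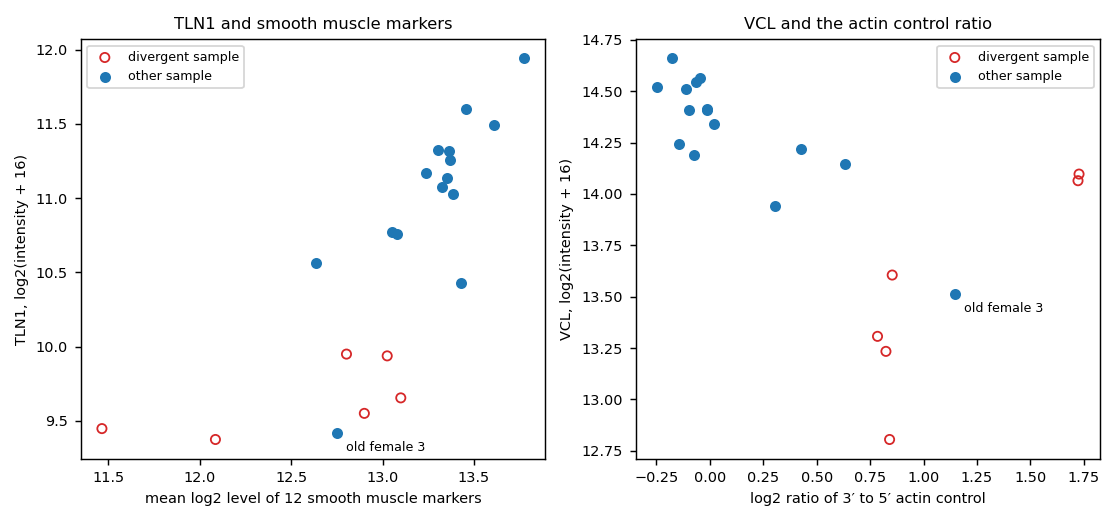
Left, TLN1 level, log2(intensity + 16), against the mean log2 level of 12 smooth muscle markers, and right, VCL level against the actin ratio (log2, 3′ over 5′ control), 1 point per sample. Filled circles, the 15 samples used, give r = 0.78 on the left and r = -0.86 on the right. Open red circles are the 6 divergent samples, not used in these r. Taken alone, they give r = 0.66 on the left and r = 0.86 on the right. Old female 3, marked, sits at the low end of both relations.

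For each gene, the 3 tested genes whose levels ran most alike over the 15 samples were listed by Pearson's r, without a test. For ILK they were VIM (r = 0.96), PBXIP1 (0.92) and KLF13 (0.89), where VIM encodes vimentin, the intermediate filament protein of mesenchymal cells. For TLN1 they were EHBP1L1 (0.94), MYL9 (0.93), a regulatory light chain of smooth muscle myosin, and SH3GLB2 (0.91). For TNS1 they were ACTA2 (0.86), smooth muscle actin, MYLK (0.85), myosin light chain kinase, and TGFB1I1 (0.81), the paxillin relative Hic-5. VCL ran most like SPIN1 (0.92), GATAD1 (0.89) and YAP1 (0.88), a transcriptional co-activator of the Hippo pathway. ACTN1 ran most like ZBTB43 (0.92), ARF5 (0.87) and ARHGEF10L (0.87), and ZYX like PRRC2A (0.88), TRIM3 (0.87) and MAP7D3 (0.86). PTK2 was nearest to ADAM17 (0.85), a sheddase, HDHD5 (0.83) and CDK17 (0.80), PARVA to PCBP1 (0.82), AP4S1 (0.79) and TGM2 (0.78), a transglutaminase, and PXN to P3H1, SEMA4A and RIPOR1 (0.78 each). These r were not computed again without old female 3, the lowest of the 15 samples for TLN1, VCL, ILK, ZYX and TNS1.

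The wider set of focal adhesion genes (integrins, adaptors, kinases and actin regulators) had 66 listed genes, of which 52 were tested; MYL9 stands in it and among the smooth muscle markers. None passed limma's adjusted threshold in any of the 6 contrasts. In males 27 of 52 had a lower mean in old animals (median log2 change -0.02), with 1 lower and 1 higher at an unadjusted p below 0.05 (3.85% of the list, against 3.62% of all 6952 tested genes). These were TLN2, the second talin (-1.12 ± 0.49), and FHL2, a LIM protein of muscle (0.95 ± 0.31). Next by p came PDLIM1 (-0.51 ± 0.27), a partner of alpha-actinin, and ITGAV (-0.38 ± 0.21), the alpha V integrin. In females 36 of 52 had a lower mean (median -0.07), with 1 lower and 1 higher at an unadjusted p below 0.05 (3.85% of the list, against 2.88% of all tested genes). ITGB1, the beta 1 integrin that most of these sites are built on, averaged 13.60 in old females and 13.91 in young females, a log2 change of -0.30 ± 0.12. CSK, the kinase that restrains Src, averaged 9.61 in old females and 8.88 in young females, a log2 change of 0.73 ± 0.26. Next by p came PFN1 (1.62 ± 0.80), which encodes the actin monomer binder profilin 1, and TGFB1I1 (-0.49 ± 0.24). The limma adjusted p was 0.9999 for TLN2 and FHL2 and 0.9996 for ITGB1 and CSK. Averaged over both sexes 5 genes were lower and 1 higher at an unadjusted p below 0.05 (11.5% of the list, against 4.7% of all tested genes, 193 lower and 134 higher), among them CSK (0.53 ± 0.18), ITGB1 (-0.23 ± 0.08), TLN2 (-1.004 ± 0.36) and TGFB1I1 (-0.45 ± 0.17), each with a limma adjusted p of 0.985.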

How the data were processed

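Aortic RNA was extracted by phenol and chloroform and its copies were biotin-labelled, per the labels' protocols. The authors deposited a linear intensity for each of 22277 probe sets of a human array. Their summarising and scaling steps are not given in the sources used here. Monkey RNA was hybridised to human probes, and a mismatch between the species can dim a probe set on all arrays alike. Precision is limited by the number of arrays.

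After 62 control probe sets had been set aside, intensities were converted to log2(intensity + 16) and the arrays quantile normalised. The pseudocount understates changes of dim genes. Arrays whose deviations from the average array correlated above 0.7 (0.79 to 0.88) were averaged and counted once, 24 arrays giving 21 samples. This decision used the values, and 24 samples were kept as an alternative. Of 22215 probe sets, 11108 at or above the median mean were tested. The platform annotation, which can be old, gave 1 symbol to 19064 probe sets and several to 1043, which were not named, and 2108 are unnamed here.

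A mean per group was fitted with limma 3.58.1 in R 4.3.3 (intensity trend, Benjamini-Hochberg over all tested probe sets of a contrast, threshold 0.05), and the procedure was tested on simulated data. Correlations with permutation p were computed with numpy 2.4.6, on ranks from scipy 1.17.1 for rho. The smallest possible p of the 100000 resamples is 1e-05. In the 6 divergent samples the test was exact over 720 orders, so its smallest possible p is larger. The genes, lists and limits were chosen with earlier results of these data known. Named were all probe sets of the 10 genes, the 3 genes most like each by r, and up to 4 genes of the wider list with the smallest p per age contrast. The alternatives were other pseudocounts, normalization, filters, array weights, covariates, a replicate block and leaving out samples. Replicate numbers did not pair the samples. No sequence is shown, since none was given here.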

Additional observations from a re-analysis of the deposited data

Results flagged for a closer look

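In the groups of 5 or 6 samples, each of the 9 genes was searched for a highest or lowest sample whose gap to its nearest neighbour is too large a part of the group's range by Dixon's criterion. Of 36 combinations of gene and group, 2 were marked, and chance alone marks about 5% of groups. ILK in young female 3 read 11.49, with the nearest young female at 13.47 and the highest at 13.76. This is a divergent sample and the mean of 2 near-identical arrays, with an actin ratio of 0.82. ZYX in old male 1 read 11.16, with the nearest old male at 10.92 and the lowest at 10.83. Old male 1 also had the highest smooth muscle mean of all samples, 13.78. The part of these values in the marked levels was not tested.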

How the results depend on the processing

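In each of the 6 contrasts 0 of 21 probe sets passed the adjusted threshold under every alternative run (24 to 35 a contrast), with a smallest adjusted limma p of 0.519. The median log2 change of the 9 genes ran from -0.25 to -0.06 in males and from -0.44 to 0.01 in females over these alternatives, from -0.37 to -0.08 for both sexes, from -0.12 to 0.28 for the interaction and from -0.10 to 0.19 between young males and females. Between old males and females it ran from -0.26, with the smooth muscle mean as a covariate, to 0.36, around 0.24 as reported. The replicate block gave medians of -0.13 in males, -0.23 in females, -0.19 for both, 0.19 for the interaction, 0.31 between old and 0.10 between young males and females, and changed no call. Same-numbered samples of different groups had deviations correlated at a median of 0.07 (14 of 30 pairs above 0.1, lowest -0.43), so numbers were not taken as pairs.

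The count of pairs of genes past the threshold, 5, was the less stable result. It was 8 with all 24 arrays counted, 10 with arrays centred on their medians, 20 with the mean of all probe sets of a gene, and 2 as residuals from the smooth muscle mean, which was chosen after the data were seen. On the brightest probe sets, leaving out 1 sample gave 0 (without old female 3) to 10 (without young male 3). The median r of the pairs, 0.17, was 0.59 with the mean of all probe sets and 0.61 in the divergent samples alone. The causes were not tested. With 5 or 6 samples a group, the intervals leave room for changes of the sizes given with each gene.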

Other observations

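In old animals, 5 of the 52 tested genes of the wider focal adhesion list had an unadjusted limma p below 0.05 between males and females, 3 with a higher and 2 with a lower mean in males, and 0 passed the adjusted threshold. That is 9.62% of the list, against 4.3% of all 6952 tested genes, of which 148 had a higher and 151 a lower mean in males. CSRP1, a LIM protein of smooth muscle, averaged 14.09 in old males and 13.58 in old females, a log2 change of 0.50 ± 0.21. CAV1, the caveolin of membrane pits, averaged 13.99 in old males and 13.59 in old females, a log2 change of 0.40 ± 0.17. FHL2 averaged 9.66 in old males and 8.94 in old females, a log2 change of 0.72 ± 0.31, and in young animals 8.71 in males and 9.35 in females. Its age effect differed between the sexes by 1.35 ± 0.45 on the log2 scale, at a limma adjusted p of 0.9999. LPXN, leupaxin, a paxillin relative known from blood cells, averaged 8.39 in old males and 9.09 in old females, a log2 change of -0.71 ± 0.30, and the macrophage markers averaged 8.69 ± 0.29 in old males and 9.35 ± 0.73 in old females (SD, n = 6 and 5).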
